A study of Mus musculus with 8 samples.

Results

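Lrrc32 and 9 genes of the transforming growth factor beta (TGF-beta) pathway were followed across the 8 RNA sequencing libraries of a mouse study: the ligands Tgfb1 and Tgfb3, the receptors Tgfbr1 and Tgfbr2, the signal transducers Smad2 and Smad3, and the inhibitors Smad7, Ski and Skil. The genes were taken by symbol, and all 10 were found among the 50686 genes counted and passed the filter on low counts. They were put together with results of the E47-ER against GFP comparisons of these libraries already known, so their values in those comparisons are given as a description, and how many of them were called there supports nothing.

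The cells were thymic group 2 innate lymphoid cells (ILC2), a lymphocyte type without antigen receptors that makes type 2 cytokines, of plck-Id1 transgenic mice on the C57BL/6 strain. Id1 encodes an inhibitor of the E proteins, to which E47 belongs, and in plck transgenes the proximal Lck promoter drives expression in developing T cells. The ILC2 were expanded in IL-33, IL-25 and IL-7, and carried either E47-ER with GFP or GFP alone from the MIGR1 retrovirus. E47-ER joins E47, a product of Tcf3, to the estrogen receptor, which keeps it inactive until 4-hydroxytamoxifen is given. The 4 groups were E47-ER at 16 h, GFP at 16 h, E47-ER at 4 h and GFP at 4 h of 4-hydroxytamoxifen, with 2 libraries each. The Id1 transgene and the drug were shared by every group, and no E47-ER library without the drug was included, so a response to the drug cannot be told apart from differences that preceded it. Whether the replicates were separate mice or cultures is not in the labels. P-values therefore measure the spread among these libraries alone, and that spread may be technical.

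TGF-beta is secreted in a latent form, bound to its own propeptide. GARP, the product of Lrrc32, holds latent TGF-beta on the cell surface and is known from regulatory T cells and platelets. Released ligand binds the type II receptor, encoded by Tgfbr2, which activates the type I receptor encoded by Tgfbr1. The type I receptor phosphorylates SMAD2 and SMAD3, which enter the nucleus with SMAD4. SMAD7 blocks the activated receptor, and SKI and SnoN, the product of Skil, are corepressors that bind the SMADs. In lymphocytes the pathway restrains proliferation and supports residence in tissues.

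Library totals ran from 8813782 to 18677675 counts. The library with the lowest total, replicate 2 of GFP at 16 h (the shallow library), was unlike the rest. It had a scaling factor of 0.854, where the others had 1.01 to 1.03, and its log2 CPM values (counts scaled to library size) gave a mean Pearson correlation of 0.951 across genes with those of other libraries, where the others gave 0.978 to 0.982. Each library was also set against the mean of the other libraries with the same construct (log2 scale). In the shallow library, genes with under 2373 bases of exon lay at a median of 0.55 above that mean, where the others had -0.24 to 0.05. Genes with over 6385 bases lay at -0.31, where the others had -0.03 to 0.15. For the other GFP libraries that mean included the shallow library. The results are therefore set beside their values without the shallow library. Without it, 1 library stood for GFP at 16 h, and its variance was taken from the other groups. Esr1, part of the E47-ER construct, had 43.8 to 54.5 CPM in the 4 E47-ER libraries and 0.211 to 0.932 CPM in the 4 GFP libraries. Of 12 ILC2 marker genes, 11 exceeded 1 CPM in every library.

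Windows before the gene starts are shown for the genes whose profiles resembled each other most, Tgfbr2 and Smad3, and for the only member window that held an E-box, the second start of Tgfbr1. E47 binds E-boxes, written CANNTG. The sequences are the 250 bases before each start on the gene's strand, from the RefSeq promoter table (GRCm38.p6), at chr9:116175364-116175613 (minus strand), chr9:63757995-63758244 (minus strand) and chr4:47385966-47386215 (plus strand). Capitals mark the E-box.
Tgfbr2: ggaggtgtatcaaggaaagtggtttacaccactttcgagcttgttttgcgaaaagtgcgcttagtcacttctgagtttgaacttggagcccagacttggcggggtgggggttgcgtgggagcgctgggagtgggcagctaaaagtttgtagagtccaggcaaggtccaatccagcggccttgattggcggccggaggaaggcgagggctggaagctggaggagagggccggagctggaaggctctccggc
Smad3: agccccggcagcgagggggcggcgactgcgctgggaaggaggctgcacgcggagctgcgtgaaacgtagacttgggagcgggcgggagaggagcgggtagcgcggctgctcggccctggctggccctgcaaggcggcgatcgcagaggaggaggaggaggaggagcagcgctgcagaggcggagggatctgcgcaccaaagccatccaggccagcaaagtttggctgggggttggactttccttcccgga
Tgfbr1, second start: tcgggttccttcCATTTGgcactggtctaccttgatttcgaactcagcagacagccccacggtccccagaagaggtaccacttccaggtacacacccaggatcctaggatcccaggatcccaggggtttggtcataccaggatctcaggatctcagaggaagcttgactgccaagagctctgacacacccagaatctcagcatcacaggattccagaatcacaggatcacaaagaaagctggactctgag
The table held 5 of the 10 genes in 6 windows: Tgfb1, Tgfbr1 with its pair of starts, Tgfbr2, Smad3 and Ski. No entry was found for Lrrc32, Tgfb3, Smad2, Smad7 and Skil. Both strands were searched, which for CANNTG is the same search. The Tgfbr1 window held CATTTG, 238 bases before the start, and the windows of Tgfbr2, Smad3, Tgfb1, Ski and the first Tgfbr1 start held no CANNTG. Of all 32851 windows of that length in the table, 66.2% held CANNTG. Its forms CAGCTG and CAGGTG (or CACCTG, its other strand) stood in 13 and 17.2% of them and in none of the 6 member windows.

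Lrrc32, Tgfb3, Tgfbr2 and Smad3 stood higher in E47-ER than in GFP cells at 16 h and at 4 h, with no overlap between the libraries. Lrrc32 was 6.94 times as high at 16 h and 3.69 times as high at 4 h. Tgfb3 was 5.74 and 2.83 times as high at those times, Tgfbr2 2.22 and 1.42 times, and Smad3 2.00 and 1.34 times. Tgfbr1 also stood higher without overlap, at 1.52 times at 16 h (1.30 without the shallow library) and 1.09 times at 4 h. Tgfb1 stood slightly lower in E47-ER cells at both times. Smad2, Smad7, Ski and Skil differed by less than 1.5 times between E47-ER and GFP cells at either time.

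Lrrc32 (ENSMUSG00000090958; GRCm38 chromosome 7, 98489283 to 98502181, plus strand) encodes the surface carrier of latent TGF-beta. At 16 h it had 34.1 and 38.8 CPM in E47-ER cells, against 6.18 and 4.00 CPM in GFP cells. At 4 h it had 24.6 and 25.3 CPM in E47-ER cells, against 7.21 and 6.34 CPM in GFP cells. The 4 E47-ER libraries all lay above the 4 GFP libraries, and the lowest of them, at 24.6 CPM, was over 3 times the highest GFP library. The log2 fold change was 2.80 (SE 0.214) at 16 h and 1.88 (SE 0.201) at 4 h. Without the shallow library these values were 2.55 (SE 0.178) and 1.89 (SE 0.135). In raw reads the gene had 510 and 673 counts in E47-ER cells and 92 and 30 counts in GFP cells at 16 h, so the lowest library rests on 30 counts. Group means in falling order were 36.4 ± 3.39 CPM in E47-ER cells at 16 h, 24.98 ± 0.489 CPM in E47-ER cells at 4 h, 6.77 ± 0.613 CPM in GFP cells at 4 h and 5.09 ± 1.55 CPM in GFP cells at 16 h (SD, n = 2 each). The means of the last 2 groups differed by less than the sum of their SDs. No other annotated gene overlapped Lrrc32. In bulk RNA, more cells that express a gene and more RNA per cell cannot be told apart.

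**Figure D1:**
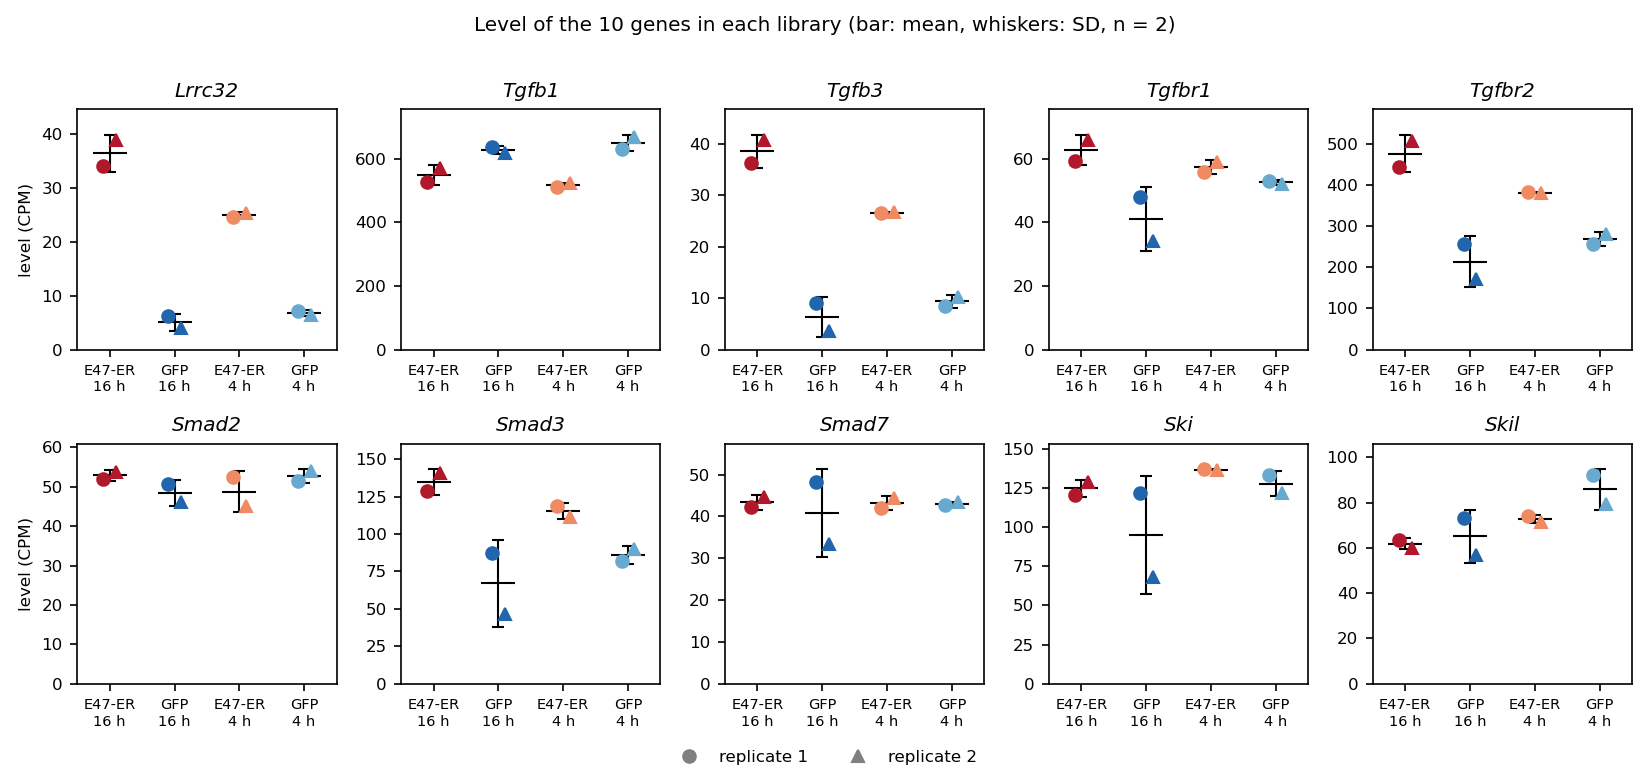
Level of each of the 10 genes in CPM (y axis from 0) by group, with 1 point per library (circle, replicate 1; triangle, replicate 2), a bar at the mean and whiskers of 1 SD (n = 2). In Lrrc32 and Tgfb3 the E47-ER libraries lie far above the GFP libraries at both times, at 34.1 and 38.8 against 6.18 and 4.00 CPM for Lrrc32 at 16 h.

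Because Lrrc32 is known from regulatory T cells and platelets, marker genes of these and other cell types were read in the same libraries. All 6 regulatory T cell markers were above 1 CPM in every library. Their summed level was 692 to 698 CPM in E47-ER cells and 746 to 1110 CPM in GFP cells at 16 h. At 4 h it was 775 to 795 CPM in E47-ER cells and 777 to 810 CPM in GFP cells. Il10 was the largest part of the sum in each library. At 16 h Il10 had 347 and 333 CPM in E47-ER cells and 355 and 612 CPM in GFP cells. The higher GFP values at 16 h, of the sum and of Il10, were those of the shallow library. The log2 fold change of Il10 was -0.51 (SE 0.231) at 16 h, and -0.07 (SE 0.0961) without that library. Foxp3, the defining factor of regulatory T cells, had 12.2 and 13.04 CPM in E47-ER cells and 8.20 and 4.00 CPM in GFP cells at 16 h (edgeR log2 fold change 0.99, SE 0.297, adjusted p = 0.134; without the shallow library, 0.62 and adjusted p = 0.0633). At 4 h Foxp3 had 11.7 and 10.9 CPM in E47-ER cells and 11.4 and 8.88 CPM in GFP cells, which overlapped. Reads of Foxp3 cannot be fully separated from those of genes that overlap it, such as Flicr. None of the 8 platelet markers exceeded 1 CPM in every library, and their summed level was 3.75 to 4.21 CPM in E47-ER cells and 2.26 to 2.69 CPM in GFP cells at 16 h, then 2.82 to 3.60 CPM in E47-ER cells and 1.8 to 2.02 CPM in GFP cells at 4 h. Over all 8 libraries Pf4 had 5 counts, Gp9 had 2, Gp1bb had 9 and Treml1 had 0. Other platelet genes of the list had more, with 96 counts of Itga2b, 101 of Gp1ba and 51 of Gp5. The platelet chemokine gene Ppbp had 1.803 and 1.33 CPM in E47-ER cells and 0.134 and 0.133 CPM in GFP cells at 16 h (adjusted p = 0.0271, and 0.00893 without the shallow library).

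Of 8 T cell markers, 3 exceeded 1 CPM in every library and the list summed to 43.5 to 48.9 CPM in E47-ER cells and 32.2 to 38.6 CPM in GFP cells at 16 h, with 1 count each of Cd8a and Cd8b1 in all. Cd3e, the highest of them, had 33.9 and 38.3 CPM in E47-ER cells and 26 and 28.0 CPM in GFP cells at 16 h (log2 fold change 0.42, adjusted p = 0.147, and 0.47 and 0.0318 without the shallow library). The 9 endothelial, fibroblast and epithelial markers summed to 180 to 194 CPM in E47-ER cells and 134 to 158 CPM in GFP cells at 16 h. Pecam1 made up most of that sum, with 157 and 172.5 CPM in E47-ER cells and 151 and 123 CPM in GFP cells. Kdr had 5 counts and Col3a1 had 4 in all. Epcam, the epithelial adhesion gene of that list, had 22.2 and 20.4 CPM in E47-ER cells and 5.98 and 8.79 CPM in GFP cells at 16 h (adjusted p = 0.0285, and 8.43e-06 without the shallow library). The 9 myeloid markers summed to 22.1 to 28.5 CPM in E47-ER cells and 14.0 to 17.1 CPM in GFP cells at 16 h, with Lyz2 at 2 counts and Elane and S100a9 at 0. Among those with more counts, Cd68 had 14.9 and 19.9 CPM in E47-ER cells and 11.3 and 9.85 CPM in GFP cells at 16 h (adjusted p = 0.175), and Itgam had 2.94 and 3.87 CPM in E47-ER cells and 1.95 and 2.00 CPM in GFP cells (adjusted p = 0.167). Csf1r had 1.09 and 0.935 CPM in E47-ER cells and 0.253 and 0.0528 CPM in GFP cells at 4 h (adjusted p = 0.411, and 0.0164 without the shallow library). The 6 B cell markers summed to 7.91 to 8.55 CPM in E47-ER cells and 9.40 to 15.0 CPM in GFP cells at 16 h, with Ms4a1 at 4 counts in all. Cd79b made up most of that sum, with 7.61 and 7.39 CPM in E47-ER cells and 9.07 and 12.9 CPM in GFP cells. At 4 h, in E47-ER and GFP cells in that order, the T cell list summed to 37.4 to 37.5 and 33.8 to 37.8 CPM, the endothelial, fibroblast and epithelial list to 156 to 159 and 152 to 153 CPM, the myeloid list to 18.6 to 24.9 and 18 to 20.2 CPM, and the B cell list to 6.62 to 8.06 and 6.57 to 7.61 CPM. Whether other cells had a part in the Lrrc32 level was not tested.

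Of the ligand genes, Tgfb3 stood higher in E47-ER cells, as Lrrc32 did, and Tgfb1 did not. Tgfb3 (ENSMUSG00000021253; chromosome 12, 86056745 to 86079041, minus strand) had 36.3 and 40.8 CPM in E47-ER cells and 9.14 and 3.60 CPM in GFP cells at 16 h. At 4 h it had 26.5 and 26.7 CPM in E47-ER cells and 8.54 and 10.2 CPM in GFP cells. Every E47-ER library lay above every GFP library. The log2 fold change was 2.52 (SE 0.330) at 16 h and 1.502 (SE 0.311) at 4 h, and 2.07 (SE 0.167) and 1.502 (SE 0.129) without the shallow library, where Tgfb3 had 27 counts. Tgfb3 overlaps Ttll5 on the other strand, with no shared exon base, and 2 predicted genes, Gm37804 and Gm48008, with 163 and 257 shared exon bases. Whether the counts used strand is not given in the sources used here, so reads of the strands cannot be told apart there. Ttll5 had 18.3 and 20.3 CPM in E47-ER cells and 17.9 and 9.32 CPM in GFP cells at 16 h, and Gm37804 had 5 counts in all.

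Tgfb1 (ENSMUSG00000002603; chromosome 7, 25687002 to 25705077, plus strand), the main ligand of lymphocytes, had 527 and 569 CPM in E47-ER cells and 635 and 617 CPM in GFP cells at 16 h. At 4 h it had 511 and 522 CPM in E47-ER cells and 630 and 666 CPM in GFP cells. All 4 E47-ER libraries lay below all 4 GFP libraries, though the gap was small. On the log2 scale Tgfb1 differed by -0.19 (SE 0.123) at 16 h and -0.33 (SE 0.123) at 4 h, and -0.22 (SE 0.0916) and -0.32 (SE 0.0754) without the shallow library.

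Levels of different genes were set side by side per kb of annotated exon. On this scale Tgfb1 stood at 104.5 and 113 CPM per kb in E47-ER cells and 126 and 122 CPM per kb in GFP cells at 16 h. Tgfb3 stood at 10.7 and 12.1 CPM per kb in E47-ER cells and 2.70 and 1.06 CPM per kb in GFP cells. Tgfb1 thus remained the higher of the ligand genes in every library, by 9.36 to 13.1 times in E47-ER and 43.8 to 115 times in GFP libraries. The 115 was that of the shallow library, and the other GFP libraries had 43.8 to 49.6 times. Tgfb3 made up 9.48 ± 0.233% of the sum of both in E47-ER cells and 1.48 ± 0.876% in GFP cells at 16 h. At 4 h it made up 7.12 ± 0.0636% in E47-ER cells and 2.10 ± 0.177% in GFP cells (SD, n = 2 each). The GFP libraries of 16 h had 2.1% (replicate 1) and 0.861% (the shallow library). Per kb, Lrrc32 was the lowest of the 10 genes in GFP cells, at 1.08 ± 0.330 CPM per kb at 16 h and 1.45 ± 0.131 CPM per kb at 4 h. In E47-ER cells at 16 h it reached 7.78 ± 0.722 CPM per kb, above Skil at 6.38 ± 0.245 and Smad2 at 6.03 ± 0.153 CPM per kb. In E47-ER cells at 4 h it stood at 5.33 ± 0.104 CPM per kb, next to Smad2 at 5.56 ± 0.582, a gap within the spread of replicates.

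**Figure D2:**
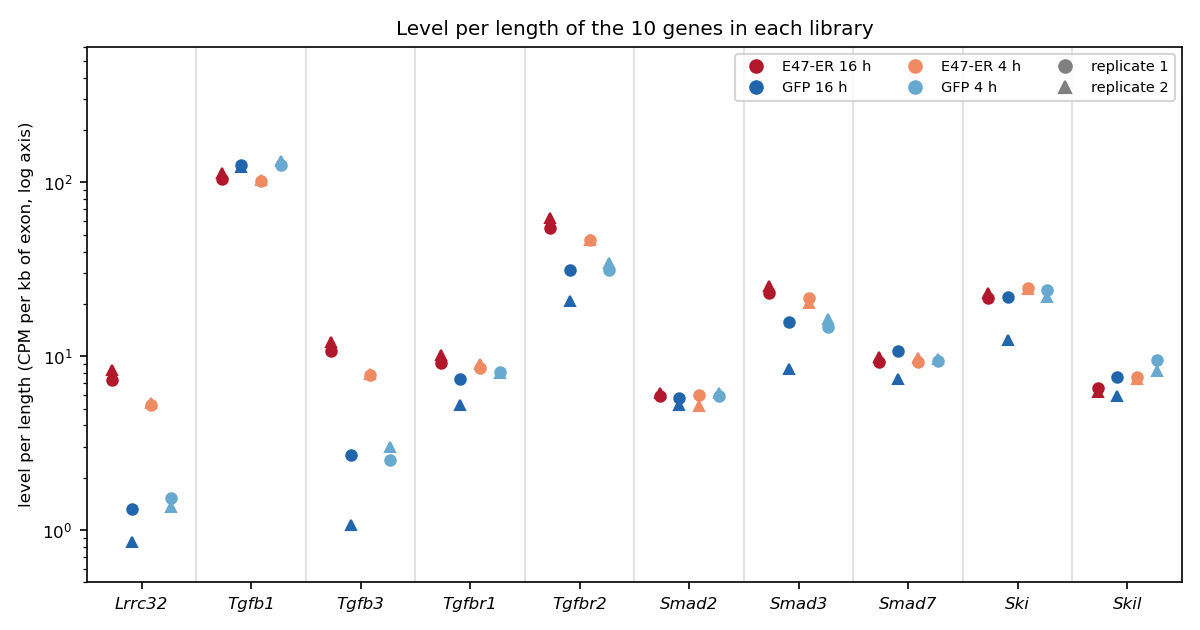
Level per length of the 10 genes (CPM per kb of exon, log axis) with 1 point per library, coloured by group and shaped by replicate. Tgfb1 is the highest gene in every library, and Lrrc32 lies at 7.78 CPM per kb on average in E47-ER cells and 1.08 in GFP cells at 16 h.

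Of the receptor genes, Tgfbr2 differed more than Tgfbr1. Tgfbr2 (ENSMUSG00000032440; chromosome 9, 116084293 to 116175360, minus strand) encodes the type II receptor that binds the ligand. It had 444 and 508 CPM in E47-ER cells and 257 and 171 CPM in GFP cells at 16 h. At 4 h it had 383 and 380 CPM in E47-ER cells and 256 and 281 CPM in GFP cells. All E47-ER libraries lay above all GFP libraries. Its log2 fold change was 1.15 (SE 0.197) at 16 h and 0.51 (SE 0.194) at 4 h, and 0.88 (SE 0.103) and 0.51 (SE 0.0809) without the shallow library. Its start is the first sequence shown above.

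Tgfbr1 (ENSMUSG00000007613; chromosome 4, 47353222 to 47414931, plus strand) encodes the kinase that passes the signal to the SMADs. It had 59.4 and 66.1 CPM in E47-ER cells and 48.2 and 34.1 CPM in GFP cells at 16 h, then 55.9 and 59.1 CPM in E47-ER cells and 53.1 and 52.1 CPM in GFP cells at 4 h. The groups did not overlap at either time, by a narrow gap at 4 h. Its log2 fold change was 0.60 (SE 0.173) at 16 h and 0.13 (SE 0.171) at 4 h, and without the shallow library it was 0.38 (SE 0.115) and 0.13 (SE 0.0925). Per kb, Tgfbr2 was 5.97 and 6.14 times Tgfbr1 in E47-ER cells and 4.26 and 4.00 times in GFP cells at 16 h. At 4 h the ratio was 5.48 and 5.14 in E47-ER cells and 3.85 and 4.30 in GFP cells. The ratio was higher in each E47-ER library than in any GFP library.

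Smad3 and Smad2 encode closely related transducers, and only Smad3 separated the groups at both times. Smad3 (ENSMUSG00000032402; chromosome 9, 63646767 to 63757994, minus strand) had 129 and 141 CPM in E47-ER cells and 87.6 and 46.6 CPM in GFP cells at 16 h. At 4 h it had 119 and 111 CPM in E47-ER cells and 81.7 and 90.2 CPM in GFP cells. The E47-ER libraries all lay above the GFP libraries, and the GFP replicates at 16 h lay far apart. The log2 fold change was 0.997 (SE 0.256) at 16 h and 0.42 (SE 0.253) at 4 h, against 0.61 (SE 0.107) and 0.43 (SE 0.0853) without the shallow library. Leaving out that library thus gave a 16 h fold of 1.53, against 2.00 with all libraries, and leaving out replicate 1 of that group gave a log2 fold change of 1.55.

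Smad2 (ENSMUSG00000024563; chromosome 18, 76241580 to 76310963, plus strand) had 52.0 and 53.9 CPM in E47-ER cells and 50.8 and 46.1 CPM in GFP cells at 16 h, then 52.4 and 45.2 CPM in E47-ER cells and 51.6 and 54.0 CPM in GFP cells at 4 h. The groups overlapped at 4 h and lay close together at 16 h. Its log2 fold change was 0.13 (SE 0.132) at 16 h and -0.11 (SE 0.131) at 4 h, within about 1 SE of 0, and 0.05 (SE 0.119) and -0.11 (SE 0.0966) without the shallow library. Per kb, Smad3 was 3.93 and 4.14 times Smad2 in E47-ER cells and 2.73 and 1.60 times in GFP cells at 16 h. At 4 h it was 3.60 and 3.91 times Smad2 in E47-ER cells and 2.51 and 2.65 times in GFP cells. As with the receptors, each E47-ER library had a higher ratio than any GFP library.

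None of the inhibitors separated E47-ER from GFP libraries at both times. Smad7 (ENSMUSG00000025880; chromosome 18, 75367529 to 75395935, plus strand), itself a known target of TGF-beta signalling, had 42.1 and 44.6 CPM in E47-ER cells and 48.2 and 33.3 CPM in GFP cells at 16 h, then 42.0 and 44.3 CPM in E47-ER cells and 42.7 and 43.3 CPM in GFP cells at 4 h. The groups overlapped at both times, and the log2 fold change was 0.08 (SE 0.176) at 16 h and 0.00 (SE 0.174) at 4 h. Without the shallow library it was -0.16 (SE 0.116) at 16 h and 0.01 (SE 0.0958) at 4 h. Ski (ENSMUSG00000029050; chromosome 4, 155154075 to 155222592, minus strand) had 121 and 128.5 CPM in E47-ER cells and 122 and 68.4 CPM in GFP cells at 16 h, then 137 and 136 CPM in E47-ER cells and 133 and 122 CPM in GFP cells at 4 h. Its 16 h log2 fold change of 0.38 (SE 0.236) was 0.03 (SE 0.0994) without the shallow library, which alone lay far below the rest. At 4 h its value was 0.10 with (SE 0.234) and without the shallow library, though the groups did not overlap. Skil (ENSMUSG00000027660; chromosome 3, 31095058 to 31122577, plus strand) had 63.5 and 60.1 CPM in E47-ER cells and 73.4 and 56.9 CPM in GFP cells at 16 h, which overlapped. At 4 h Skil had 74.0 and 71.6 CPM in E47-ER cells and 92.0 and 79.5 CPM in GFP cells, which did not. Its log2 fold change was -0.08 (SE 0.156) at 16 h and -0.24 (SE 0.155) at 4 h, and -0.25 (SE 0.113) and -0.23 (SE 0.0913) without the shallow library.

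**Figure D3:**
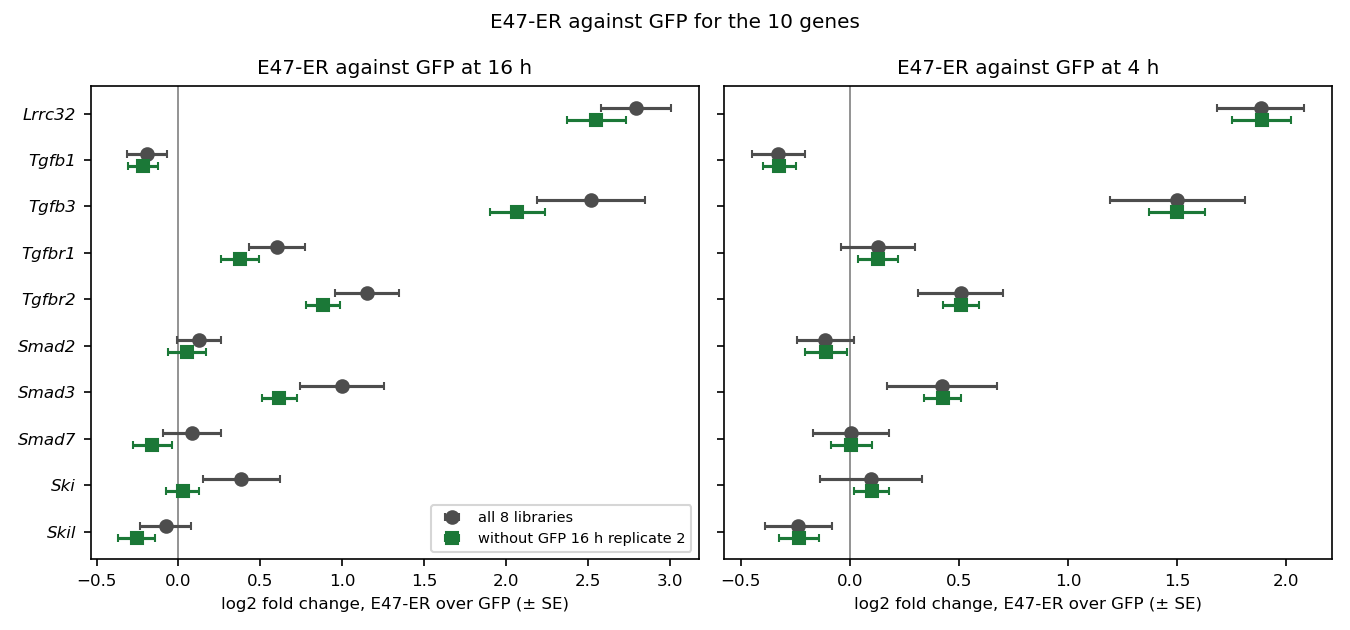
Log2 fold change of E47-ER over GFP cells (x axis, with 1 SE) for the 10 genes at 16 h (left) and 4 h (right), with all 8 libraries (grey circles) and without the shallow library, replicate 2 of GFP at 16 h (green squares). Lrrc32 and Tgfb3 lie farthest right at both times, and without that library the 16 h values of Smad3 and Ski lie at 0.61 and 0.03.

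Counted together, 3 of the 10 genes were called higher at 16 h (Lrrc32, Tgfb3 and Tgfbr2; edgeR's quasi-likelihood test, adjusted p under 0.05) and 0 lower. Of all 13644 tested genes 1.25% were called higher and 0.337% lower. Since the genes were chosen on this comparison, nothing is read from the count. At 4 h 1 was called higher (Lrrc32) and 0 lower, against 0.271% of all tested genes called higher and 0.0147% called lower. Without the shallow library, 5 were called higher at 16 h, Smad3 and Tgfbr1 being added, and 0 lower, against 4.39 and 4.53% of all genes. In that fit 4 were called higher at 4 h (Lrrc32, Tgfb3, Tgfbr2 and Smad3), against 2.64%, and Tgfb1 was called lower, against 1.68%. With each library left out in turn, the calls depended on the library removed at both times. Without a library outside the GFP group of 16 h, fewer of the 10 genes and fewer of all genes were called than with all libraries. These counts are set beside those of all genes in the closing section. In the same fits the 16 h log2 fold change ran from 2.553 to 3.21 for Lrrc32 and from 2.071 to 3.443 for Tgfb3. For Tgfbr2 it ran from 0.8812 to 1.502. At 4 h that of Lrrc32 ran from 1.79 to 1.976. At 16 h alone the E47-ER libraries lay wholly above the GFP libraries in 6 of the 10 genes and wholly below in 1, against 27.8 and 26.6% of all tested genes, and at 4 h in 6 and 2, against 22.4 and 22.9%. They lay wholly above at both times in 5 of the 10 genes (Lrrc32, Tgfb3, Tgfbr1, Tgfbr2 and Smad3) and wholly below in Tgfb1, against 11.9 and 10.4% of all tested genes. The median log2 fold change of the 10 genes was 0.49 at 16 h (0.21 without the shallow library) and 0.11 at 4 h, against -0.01 and 0.00 over all tested genes.

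With all libraries the log2 fold change at 16 h minus that at 4 h was above 0 in each of the 10 genes. Of all 13644 tested genes it was above 0 in 6900. For Tgfb1 and Skil, lower in E47-ER cells at both times, a value above 0 is a smaller difference from GFP at 16 h. For Lrrc32 the difference between the log2 fold changes was 0.91 (SE 0.289), and 0.66 (SE 0.229) without the shallow library. For Tgfb3 it was 1.02 (SE 0.446) and 0.57 (SE 0.211), and for Tgfbr2 0.64 (SE 0.275) and 0.37 (SE 0.128). In Smad7, Ski and Skil the difference was below 0 without that library. That left 7 of the 10 above 0, against 7147 of all 14146 tested genes.

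Within E47-ER cells, Lrrc32, Tgfb3 and Tgfbr2 stood higher at 16 h than at 4 h with and without the shallow library, while their calls depended on the fit. This comparison shares its libraries with those on which the genes were chosen. With all 8 libraries none of the 10 genes passed the threshold in edgeR or DESeq2, 1 had an unadjusted p under 0.05, and 2 passed in limma voom. Of all tested genes, edgeR called 0.0147%, DESeq2 0.176% and limma voom 2.76%, and 5.09% had an unadjusted p under 0.05. Without the shallow library, 3 passed, against 1.74% of all genes called higher. Lrrc32 had 34.1 and 38.8 CPM at 16 h against 24.6 and 25.3 CPM at 4 h (a log2 difference of 0.55, SE 0.187, adjusted p = 0.981; without that library 0.53, SE 0.115, adjusted p = 0.0129). Tgfb3 gave 0.54 (SE 0.295, adjusted p = 1) and 0.53 (SE 0.114, adjusted p = 0.0129), and Tgfbr2 gave 0.32 (SE 0.194, adjusted p = 1) and 0.31 (SE 0.0803, adjusted p = 0.0398) in the same fits. The folds were nearly the same in both fits, while the SE fell. Leaving out replicate 1 of GFP at 16 h also gave 3 calls (1.91% of all genes called higher), and leaving out any 1 of the other 6 libraries gave 0. The libraries at 16 h lay wholly above those at 4 h in 6 of the 10 genes and wholly below in 2 (Ski and Skil), against 25.9 and 24.5% of all tested genes.

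Within GFP cells, none of the 10 genes passed the threshold for 16 h against 4 h in edgeR, DESeq2 or limma voom. In edgeR 1 had an unadjusted p under 0.05, Skil at a log2 fold change of -0.39 (SE 0.156, adjusted p = 0.5), and 0% of all tested genes were called, with 9.07% at an unadjusted p under 0.05. All 10 log2 fold changes were below 0 with all libraries, from -0.48 for Tgfb3 to -0.05 for Tgfb1, and 8 were below 0 without the shallow library, from -0.23 to 0.16, again with none called, against 0.00707% of all genes. For Lrrc32 the values were -0.37 (SE 0.221, adjusted p = 0.516) and -0.13 (SE 0.198, adjusted p = 0.943). With replicate 2 as the lone GFP library at 16 h, 8 of the 10 were called lower, in a fit that called 21.4% of all genes higher and 20.4% lower. The libraries at 16 h lay wholly above those at 4 h in 0 of the 10 genes and wholly below in 5, against 18.7 and 18% of all tested genes.

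The other genes of the pathway were read from lists of 105 genes sorted by role, of which 77 passed the filter on low counts. At 16 h 1 of the 77 was called higher in E47-ER than in GFP cells and 0 lower, against 1.25 and 0.337% of all tested genes, and 18 (23.4%) had an unadjusted p under 0.05, against 24% of all tested genes. The called gene was Itgae (ENSMUSG00000005947; chromosome 11, 73090583 to 73147446, plus strand), which encodes the CD103 integrin chain of lymphocytes that reside in tissues and is known to be induced by TGF-beta. Itgae had 257 and 311 CPM in E47-ER cells and 156 and 114 CPM in GFP cells at 16 h, then 228 and 229 CPM in E47-ER cells and 174 and 172 CPM in GFP cells at 4 h. The groups did not overlap at either time. The log2 fold change at 16 h was 1.07 (SE 0.175, adjusted p = 0.0271), and 0.86 (SE 0.108, adjusted p = 9.39e-06) without the shallow library. Without replicate 1 of GFP at 16 h Itgae was called too, while without any 1 of the other 6 libraries adjusted p was 0.0877 to 0.314. It was 0.0512 in limma voom, 0.121 with a replicate block and 0.352 with the 4 libraries of 16 h alone. At 4 h its log2 fold change was 0.41 (SE 0.173, adjusted p = 0.842), and 0.41 (SE 0.0850, adjusted p = 0.00467) without the shallow library.

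By role, 0 of 7 tested genes of latent TGF-beta storage and activation were called at 16 h, with a median log2 fold change of 0.02, against -0.01 over all tested genes. Among them Nrros, the GARP-like carrier of myeloid cells, had 161 and 163 CPM in E47-ER cells and 151 and 142 CPM in GFP cells at 16 h. Itgb8, a chain of the integrin that frees TGF-beta from GARP, had 33.2 and 28.8 CPM in E47-ER cells and 30.7 and 39.6 CPM in GFP cells, which overlapped. The third ligand gene, Tgfb2, had 9 counts over all 8 libraries and was not tested. Of the other receptors and co-receptors 0 of 13 were called, with a median of -0.07. Of the other SMADs and their partners 0 of 15 were called at 16 h, with a median of 0.19. In this list 14 of the 15 values were above 0, against 6768 of all 13644 tested genes. Smad4, the shared partner of SMAD2 and SMAD3, had 56.1 and 59.0 CPM in E47-ER cells and 49.2 and 51.4 CPM in GFP cells. Of 18 other inhibitors 0 were called at 16 h, with a median of 0.19, and 0 of 6 other ligands of the superfamily, with a median of -0.33. Of 18 tested genes known to respond to TGF-beta, 1 was called (Itgae), and the median was -0.16. An unadjusted p under 0.05 was reached by 8 of the 18 responsive genes, 4 of the 13 receptors and 4 of the 15 SMADs and partners. It was reached by 1 of 18 inhibitors, 1 of 6 superfamily ligands and 0 of 7 genes of storage and activation, against 24% of all tested genes. Over the 77 genes DESeq2 called 8 at 16 h, against 7.71% of all tested genes, and limma voom 0, against 0.381%. The medians without the shallow library were 0.00 for storage and activation, -0.09 for receptors, 0.22 for SMADs and partners, 0.06 for inhibitors, -0.20 for superfamily ligands and 0.01 for responsive genes, against 0.00 over all tested genes. The median of the responsive genes thus turned its sign. Those of storage and activation (from 0.016 to 0.0046), inhibitors and superfamily ligands moved by over 1.5 times.

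Next by p at 16 h were Ldlrad4 and Bhlhe40. Ldlrad4, an inhibitor that keeps SMAD2 and SMAD3 from the receptor, had 42.0 and 42.5 CPM in E47-ER cells and 28.1 and 22.8 CPM in GFP cells (log2 fold change 0.73, SE 0.145, adjusted p = 0.0563; without the shallow library 0.58, adjusted p = 0.00468). Its exons share 2798 bases with Fam210a on the other strand, so reads of the pair may be mixed. Bhlhe40, a transcription factor of activated lymphocytes, had 150 and 183 CPM in E47-ER cells and 111 and 98.7 CPM in GFP cells (0.67, SE 0.149, adjusted p = 0.0784; without that library 0.58, adjusted p = 0.00209). Neither pair of groups overlapped. In the fit without the shallow library, 6 of 78 tested list genes were called higher (Tab2, Pmepa1, Ldlrad4, Itgae, Bhlhe40 and Gdf11) and 2 lower (Fkbp1a and Myc), against 4.39 and 4.53% of all genes. Tab2 encodes an adaptor of the kinase TAK1, Gdf11 a ligand of the superfamily and Fkbp1a a protein that holds type I receptors inactive.

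At 4 h none of the 77 was called in edgeR or DESeq2, against 0.286 and 0.894% of all tested genes. Limma voom called 4, against 2.94% of all tested genes, and 10 (13%) had an unadjusted p under 0.05, against 5.82%. The smallest p belonged to Myc, a growth factor target that TGF-beta represses in many cells, with 68.8 and 57.3 CPM in E47-ER cells and 102 and 118 CPM in GFP cells (log2 fold change -0.80, SE 0.204, adjusted p = 0.359). Ldlrad4 had 37.8 and 37.0 CPM in E47-ER cells and 25.5 and 27.9 CPM in GFP cells (0.48, adjusted p = 0.489). Pmepa1, another inhibitor that binds SMAD2 and SMAD3 and is induced by TGF-beta, had 44.7 and 52.2 CPM in E47-ER cells and 36.0 and 33.5 CPM in GFP cells (0.48, adjusted p = 0.546). In none of these did the libraries overlap at 4 h. All 3 passed without the shallow library, Myc with adjusted p = 1.03e-05, Ldlrad4 with 0.00563 and Pmepa1 with 0.00575. That fit called 3 list genes higher (Itgae being the third) and 3 lower (Myc, Fkbp1a and Junb, which encodes an AP-1 subunit), against 2.64 and 1.68% of all genes. Over the 77 genes the E47-ER libraries lay wholly above the GFP libraries at both times in 15 and wholly below in 8, against 11.9 and 10.4% of all tested genes. Their median log2 fold change was 0.11 at 16 h and 0.00 at 4 h, and 0.06 and 0.00 without the shallow library.

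**Figure D4:**
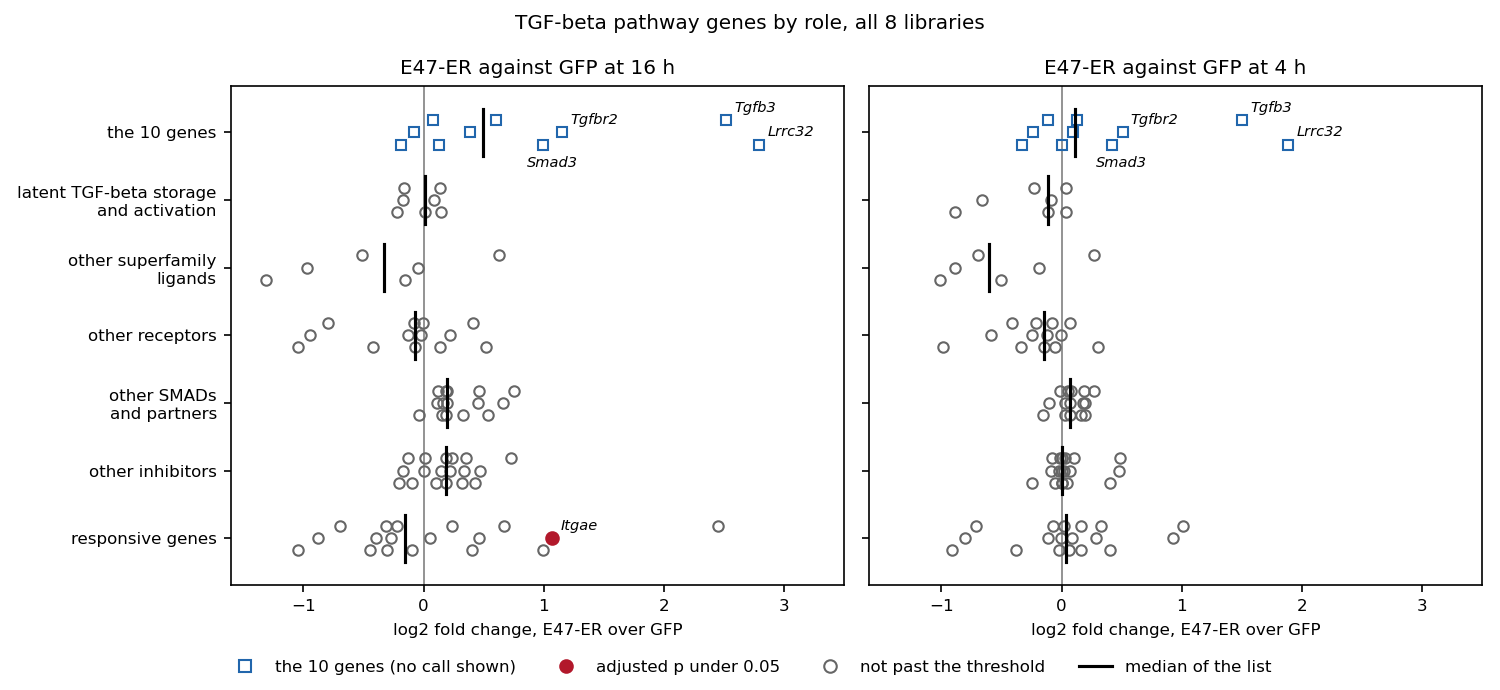
Log2 fold change of E47-ER over GFP cells (x axis) with all 8 libraries for the 10 genes (squares, no call shown) and 77 other pathway genes (circles, 1 per gene) in rows by role, at 16 h (left) and 4 h (right); filled circles passed adjusted p under 0.05 and vertical bars are medians. Lrrc32 and Tgfb3 lie to the right of every gene of the other lists at 4 h, and Itgae is the filled circle at 16 h.

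For the difference between the effects at 16 h and 4 h, 0 of the 77 genes were called by edgeR, DESeq2 or limma voom, like 0% of all tested genes, and 1 had an unadjusted p under 0.05, Itgae (0.67, SE 0.244, adjusted p = 0.699). That was 1.3% of the 77, against 4.92% of all tested genes. Without the shallow library 0 list genes were called too, against 0.0424% of all genes. Eng, a TGF-beta co-receptor, followed at 0.47 (adjusted p = 0.699), and Il9, a cytokine gene, at -0.93 (adjusted p = 0.699). For 16 h against 4 h in E47-ER cells, 0 were called by edgeR and DESeq2 and 2 by limma voom, with 2 (2.6%) at an unadjusted p under 0.05. The shares of all tested genes were 0.0147, 0.176 and 2.76% for these tools, and 5.09% at that unadjusted p. Itgb8 had 33.2 and 28.8 CPM at 16 h against 42.8 and 43.6 CPM at 4 h (-0.48, adjusted p = 0.981; without the shallow library -0.49, adjusted p = 0.0242). Myc had 93.8 and 84.3 CPM at 16 h against 68.8 and 57.3 CPM at 4 h (0.50, adjusted p = 0.981; without that library 0.48, adjusted p = 0.00961). Furin, the protease that cleaves the TGF-beta precursor, was the third gene called without that library (-0.28, adjusted p = 0.0495), so that 1 was called higher and 2 lower, against 1.74 and 1.34% of all genes. Bmpr2, a receptor of bone morphogenetic proteins, was at -0.33 (adjusted p = 0.997). In GFP cells 0 were called by any of the 3 tools and 2 (2.6%) had an unadjusted p under 0.05, against 0 and 9.07% of all tested genes. The smallest p values there belonged to Wwp1, a ubiquitin ligase (-0.40), Il9 (0.74) and Foxp3 (-0.68), each with adjusted p = 0.5.

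Profiles across the 8 libraries were compared by the root mean square difference of log2 CPM after each gene was centred on its mean, a description in which the points share the libraries and their depth. Among 8665 protein-coding genes with a mean log2 CPM of at least 3, the closest to Lrrc32 was Spsb1 at 0.18, which encodes a ubiquitin ligase adaptor. Tgfb3 was second at 0.26, followed by Crispld2, a secreted protein gene, at 0.29, Irf8, a transcription factor gene, at 0.31, and Trio, a guanine nucleotide exchange factor gene, at 0.32. Spsb1 had 95.8 and 109 CPM in E47-ER cells and 21.03 and 13.45 CPM in GFP cells at 16 h, then 96.6 and 100 CPM in E47-ER cells and 23.0 and 23.1 CPM in GFP cells at 4 h. Its E47-ER libraries overlapped between the times, unlike those of Lrrc32. Crispld2 reached 114 and 115 CPM in E47-ER cells against 15.7 and 8.39 CPM in GFP cells at 16 h. Of the other genes followed here, Tgfbr2 ranked 72 at 0.77 and Smad3 ranked 97 at 0.82, while Tgfb1 ranked 6544. The 10 genes were put together with E47-ER against GFP results of these libraries known, so nothing is read from their ranks. Within the 10 genes the closest pair was Tgfbr2 and Smad3 at 0.11 (their starts are shown above). Smad2 and Smad7 followed at 0.13 and Tgfbr1 and Ski at 0.14, and the farthest pair was Lrrc32 and Tgfb1 at 1.34. Tgfbr2, Smad3, Tgfbr1 and Ski were each lowest in the shallow library, at -0.90, -1.04, -0.63 and -0.79 from their means.

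**Figure D5:**
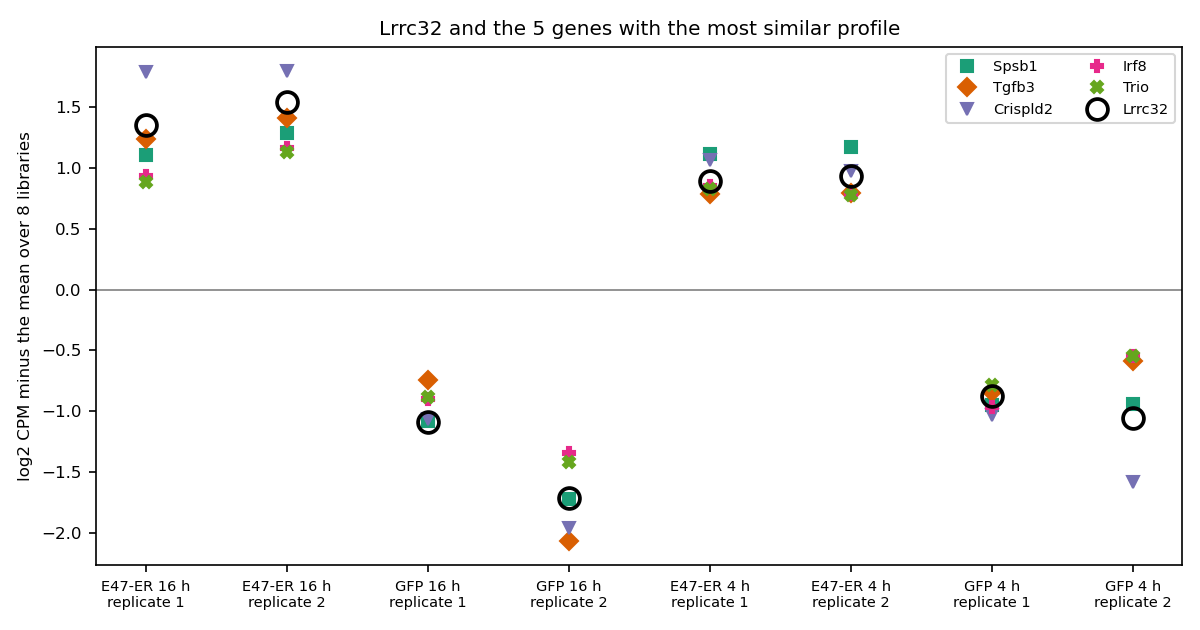
Log2 CPM minus each gene's mean over the 8 libraries (y axis) by library (x axis) for Lrrc32 (open circles) and the 5 genes with the smallest root mean square difference from it. All 6 genes lie above 0 in the 4 E47-ER libraries and below 0 in the 4 GFP libraries, lowest in the shallow library (replicate 2 of GFP at 16 h).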

How the data were processed

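The data are bulk RNA sequencing of total RNA from 8 libraries. The authors deposited raw counts, whole numbers for each Ensembl gene in each library, without normalization. The genome build mm10 and DESeq2 are named in the submitters' processing notes, with no version and no role. Aligner, counter, strand setting and annotation: not given in the sources used here. Of the 50686 gene IDs, 50462 matched GENCODE M21 (GRCm38), which gave symbols, coordinates and exon lengths. Libraries were grouped by the construct and time in their labels.

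In R 4.3.3 the counts were fitted with edgeR 4.0.16: TMM scaling, filterByExpr with a minimum count of 10 (13644 genes), and a robust quasi-likelihood fit with 1 mean per group over all 8 libraries. The p-values are two-sided with Benjamini-Hochberg adjustment over all tested genes, with calls at adjusted p under 0.05. An SE is the size of the log2 fold change over the root of its F statistic. CPM values use the scaled library sizes, and profile likeness used log2 CPM with a prior count of 1. Totals of 8813782 to 18677675 counts limit low genes most: 3 counts equal 0.159 to 0.400 CPM.

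Alternatives were DESeq2 1.42.0, RLE scaling, limma 3.58.1 voom with quality weights, no filter, a minimum count of 30, only the 4 libraries of a comparison, a replicate block, and each library left out. All 10 genes are named. Other pathway genes are named where called with all libraries or, with under 3 called, as the 3 smallest p of a comparison. Genes called only without replicate 2 of GFP at 16 h, and Nrros, Tgfb2 and Smad4, were named after their values were seen. The 10 genes, the lists and the alternatives were chosen with earlier results of these data known. The plots used matplotlib 3.10.9 (Python 3.11.15).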

Additional observations from a re-analysis of the deposited data

How the results depend on the processing

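The counts below are of genes called in either direction among the 10 genes, the 77 other pathway genes and all tested genes. With all 8 libraries these were 3, 1 and 217 at 16 h and 1, 0 and 39 at 4 h for E47-ER against GFP, 0, 0 and 0 for the difference between these effects, and 0, 0 and 2 (E47-ER cells) and 0, 0 and 0 (GFP cells) for 16 h against 4 h. RLE scaling moved no count by over 1.5 times, and a minimum count of 30 moved only the 2 genes called between the times in E47-ER cells, to 0. DESeq2 called 5, 8 and 1052 (438 higher, 614 lower) at 16 h, 2 of the 10 and 122 in all at 4 h, and 24 in all between the times in E47-ER cells. Without a filter the counts were 5, 10 and 1816 at 16 h, 2, 1 and 165 at 4 h, and in all genes 53 for the difference, 53 between the times in E47-ER cells and 305 in GFP cells. Voom with quality weights gave 0 pathway genes and 52 in all at 16 h, 4, 4 and 401 at 4 h, and 2, 2 and 377 between the times in E47-ER cells. With only the 4 libraries of a comparison the counts were 0, 0 and 6 at 16 h, 5, 6 and 442 at 4 h, and 3, 6 and 957 between the times in E47-ER cells. Libraries with the same replicate number did not deviate together (correlations of -0.084 to 0.0371), and a replicate block on these numbers gave 2, 0 and 54 at 16 h, 0 of the 10 and 11 in all at 4 h, and 0 in all between the times in E47-ER cells, and moved no other count by over 1.5 times. With each library left out in turn, the 10 genes, pathway genes and all genes gave 1 to 7, 0 to 33 and 15 to 7022 at 16 h, and 0 to 5, 0 to 6 and 1 to 619 at 4 h. They gave 0 to 6, 0 to 27 and 0 to 5124 for the difference, 0 to 3, 0 to 3 and 0 to 440 between the times in E47-ER cells, and 0 to 8, 0 to 31 and 0 to 6034 in GFP cells. The highest counts at 16 h, for the difference and in GFP cells came without replicate 1 of GFP at 16 h, when the library that stood apart represented its group alone. The causes were not tested. The log2 fold change of Lrrc32 ran from 2.55 to 3.21 at 16 h and from 1.79 to 1.98 at 4 h over all alternatives, and that of Tgfb3 from 2.07 to 3.44 and from 1.38 to 1.64. No called value changed sign.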
